A study of Rattus norvegicus with 2 samples.

Results

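The genes encoding the auxiliary subunits of voltage-gated calcium channels were examined in sympathetic neurons of the rat stellate ganglion. They are the 4 alpha2delta genes, Cacna2d1, Cacna2d2, Cacna2d3 and Cacna2d4, and the 4 beta genes, Cacnb1, Cacnb2, Cacnb3 and Cacnb4, found by gene symbol among 25399 lines of each deposited expression table. All 8 genes had a line in both tables. Dissociated stellate ganglia had been sequenced cell by cell (scRNAseq) to look for ion channel differences that go with the different firing rate of neurons of the 2 strains. There was 1 library from Wistar rats, labelled normotensive, and 1 library from SHRs (spontaneously hypertensive rats), labelled prehypertensive. Both came from animals aged 5 to 6 weeks, which per the study's methods were male. No treatment was given to either group, and all ganglia were dissociated with collagenase IV and trypsin. SHRs are an inbred strain selected for high blood pressure and Wistar rats an outbred stock, so the groups differ at many loci. The number of animals behind each library is not given in the sources used here.

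Voltage-gated calcium channels let calcium into the neuron on depolarization, which in sympathetic neurons triggers release of norepinephrine. The alpha1 subunit forms the pore and sets the channel type. In high-voltage-activated channels, such as the N-type channel Cav2.2, it is joined by a cytoplasmic beta subunit, which binds the linker between its first and second domains, and by an extracellular, membrane-anchored alpha2delta subunit. Both help the channel to reach the cell surface and change its gating. Alpha2delta proteins also carry the binding site of gabapentin in some members, and beta subunits bind small GTPases of the RGK family.

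Levels are averages over the neurons of a library, after each cell's counts had been scaled to a total of 10000. Transcripts were counted at the 3′ end, where a molecule gives 1 count whatever its length, so the levels were not divided by gene length. A mean over neurons does not tell fewer neurons with a transcript from fewer counts per neuron. The paper describes more than 1 population of sympathetic neurons, differing mainly in neuropeptide Y, and a mean does not separate them. Their mix in each library was not examined here. Because each strain is represented by a single library, no difference between the strains given here carries an error or a test. The counts behind the means are unknown, but repeated values show how coarse the low means are. In Wistar 199 values, and in SHR 111 values, were each shared by at least 3 genes, as happens where genes were counted only in the same cell. The largest such value was 0.00776 per 10000 in Wistar against 0.0186 in SHR, so a difference of this size between low genes can come from 1 cell. Most shared values were smaller, with a median of 0.000327 in Wistar and 0.000906 in SHR. The largest value is used below as a cautious limit.

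The neuron label was checked against 13 marker genes, all of which were above 0 in both libraries. Th, Dbh and Slc6a2, which encode 2 enzymes of norepinephrine synthesis and the norepinephrine transporter, had means of 6.36 to 15.9 per 10000. Of the 13 neuron markers, 7 were lower and 6 higher in SHR, from 37.6% lower for Dbh to 80.5% higher for Hand2. They summed to 182 per 10000 in Wistar against 208 in SHR. Markers of glia, endothelium, fibroblasts, immune cells and smooth muscle were present and were unequal between the libraries. The 34 listed markers summed to 11.9 per 10000 in Wistar against 4.01 in SHR, and 30 of them were lower in SHR. Cd3e was at 0 in both libraries and Rgs5 was at 0 in SHR. The 9 listed glial markers alone summed to 9.39 per 10000 in Wistar against 3.46 in SHR, with Apoe the most abundant of them, at 6.24 and 2.23. Mitochondrial genes took 16.9% of the Wistar counts and 18% of the SHR counts, and ribosomal protein genes took 2.36% and 3.43%. The part of these differences in the results that follow was not tested.

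Among the alpha2delta genes, Cacna2d1 carried nearly all of the counts in both strains, and it was lower in SHR. This gene encodes alpha2delta-1, the main target of gabapentin and pregabalin. It averaged 1.90 per 10000 in Wistar against 1.01 in SHR. The SHR mean was 46.5% lower, a difference of -0.52 on the scale of log2(1 + mean). Cacna2d1 ranked 828 among all genes in Wistar and 1592 in SHR.

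The other alpha2delta genes had means below 0.1 per 10000. Cacna2d3, whose protein does not bind gabapentin with high affinity, was listed at 0.0490 per 10000 in Wistar against 0.0538 in SHR. Cacna2d2, whose protein does bind gabapentin and is abundant in cerebellar Purkinje cells, was listed at 0.0125 in Wistar and 0.0235 in SHR. The SHR value of Cacna2d2 was 1.87 times the Wistar value, but the 2 values lay 0.0109 per 10000 apart, less than the 0.0186 that several genes shared in SHR. The difference of Cacna2d3, 0.00476 per 10000, was also under that value. For neither gene can a direction between the strains be read at this depth. Cacna2d4, best known from photoreceptors, was listed at 0 in both libraries. Because the counts are unknown, no upper limit can be put on that 0.

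**Figure D1:**
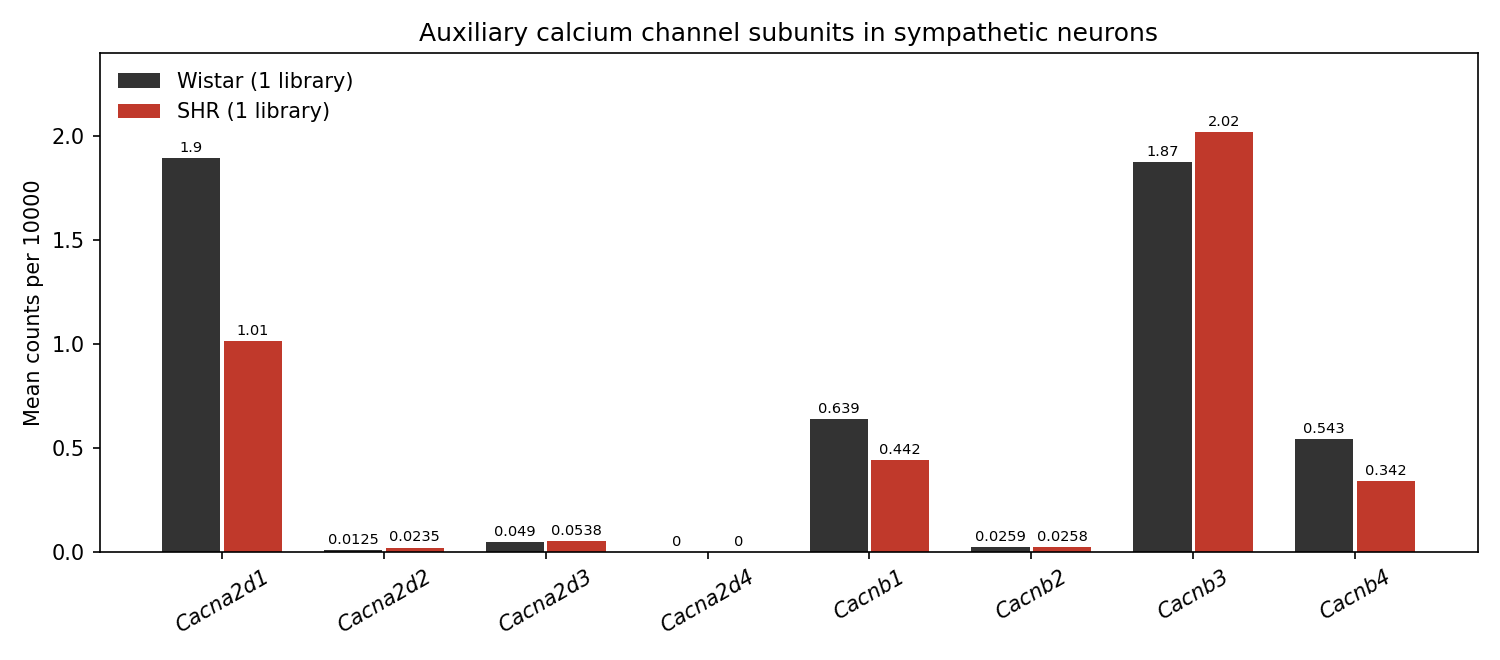
Mean counts per 10000 (vertical axis) of the 8 auxiliary subunit genes in the Wistar library (black bars) and the SHR library (red bars), with the value above each bar and no error bars because each strain has 1 library. Cacna2d1 stood at 1.90 in Wistar and 1.01 in SHR, Cacnb3 at 1.87 and 2.02, and Cacna2d2, Cacna2d3, Cacna2d4 and Cacnb2 lay at or near 0.

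All beta genes but Cacnb2 were clearly present, and they did not go the same way. Cacnb3 had the highest mean of the family. It encodes beta3, a subunit found with N-type channels in neurons. Among the 4 subunit genes that averaged at least 0.1 per 10000 over both libraries, the minimum used for background counts, it was the only one higher in SHR. Cacnb3 averaged 1.87 per 10000 in Wistar against 2.02 in SHR. This is an SHR mean 7.66% above that of Wistar, with a log2 difference of 0.070. Cacnb3 ranked 839 in Wistar and 775 in SHR.

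Cacnb1 and Cacnb4 were both lower in SHR. Cacnb1 encodes beta1, whose muscle form couples excitation to contraction and which neurons express as well. It averaged 0.639 per 10000 in Wistar against 0.442 in SHR, 30.8% lower, with a log2 difference of -0.18. Cacnb4 encodes beta4, a partner of P/Q-type channels whose loss causes ataxia and seizures in mice. It averaged 0.543 per 10000 in Wistar against 0.342 in SHR, 37.1% lower, with a log2 difference of -0.20. Cacnb1 was above Cacnb4 in both libraries, at 1.18 times its mean in Wistar and 1.29 times in SHR. Cacnb2, which encodes the main beta subunit of cardiac L-type channels, had the lowest mean of the beta genes in both libraries. It was listed at 0.0259 per 10000 in Wistar against 0.0258 in SHR, a difference far below that which 1 cell can give.

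The order of levels differed between the strains only at the top. In Wistar, Cacna2d1 and Cacnb3 stood almost level, followed by Cacnb1, Cacnb4, Cacna2d3, Cacnb2 and Cacna2d2. In SHR the same order held below the leading pair, but Cacnb3 was at 1.99 times the mean of Cacna2d1, against 0.989 times in Wistar. With no error on any value, which neighbours in this order differ beyond their spread cannot be stated.

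The 8 genes were then set beside the whole transcriptome. Of the 8, 4 were lower in SHR, 3 were higher and Cacna2d4 was at 0 in both, and of the 4 past the minimum, Cacna2d1, Cacnb1 and Cacnb4 were lower and Cacnb3 higher. Of the 7621 genes past the minimum, 65.6% were lower. Cacnb2, the least different of the 4 lower genes, became higher under other scalings of the libraries. The median log2 difference was -0.19 over the 4 genes past the minimum and -0.052 over all genes past it. Over all 8, of which the genes under the minimum lie near 0 on this scale, it was -8.94e-05. By a fixed rule of size, a ratio of the means of at least 1.5, Cacna2d1 and Cacnb4 were lower, 2 of the 8 and 2 of the 4 past the minimum. Of all genes past the minimum, 26.5% were lower by that rule. A count over 4 genes is too small to be set apart from that share. Cacna2d2 alone was higher by it, but its means are the low ones described above. Of the genes past the minimum, a set without Cacna2d2, 5.22% were higher by the rule. None of the 8 reached a ratio of 2. Of the 1676 genes that averaged at least 1 per 10000, as Cacna2d1 and Cacnb3 did, 195 (11.6%) were lower by the size rule and 172 higher. The ratio of SHR to Wistar was lower than that of Cacna2d1 in 13.9% of the 7621 genes, lower than that of Cacnb4 in 22.2%, lower than that of Cacnb1 in 29.2% and lower than that of Cacnb3 in 72.7%. The median gene past the minimum was 13.7% lower in SHR. With that median set to no change, 1320 genes were lower and 1005 higher by the size rule, in place of 2021 and 398. Cacna2d1 was then 38.0% lower and was still past the rule, Cacnb4 was 27.1% lower and no longer past it, and Cacnb3 was 24.7% higher.

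**Figure D2:**
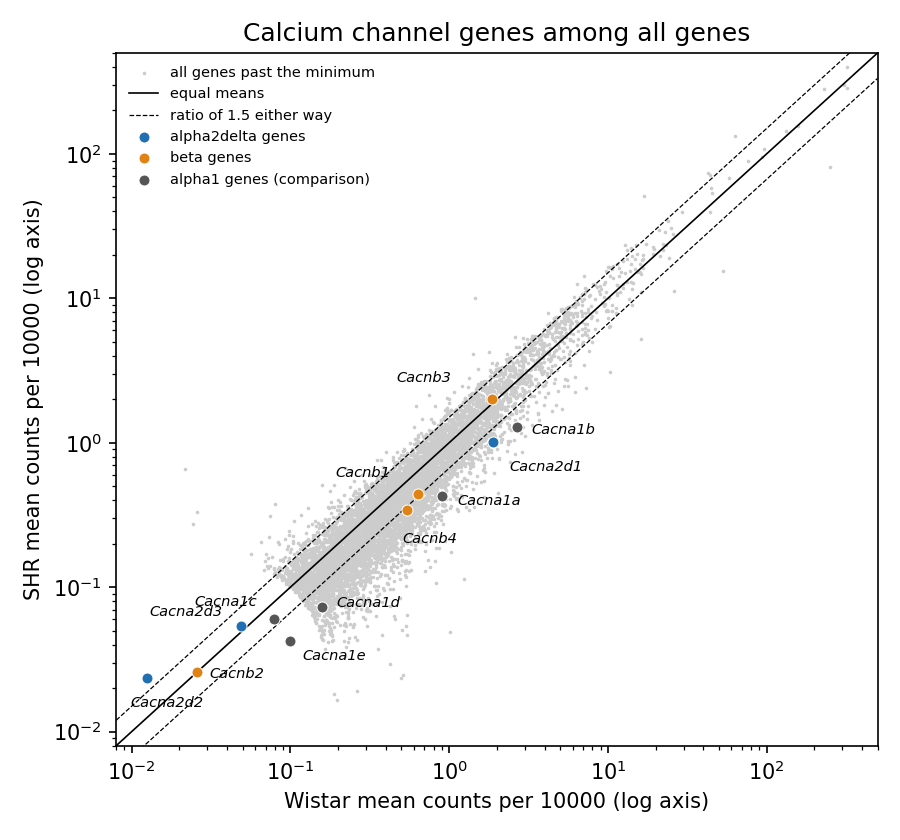
SHR mean against Wistar mean in counts per 10000, both on log axes, for the genes past the minimum that were above 0 in both libraries (grey points), with alpha2delta genes in blue, beta genes in orange and alpha1 genes in dark grey. The solid line marks equal means and the dashed lines a ratio of 1.5. Cacnb3 lies just above the line of equal means, Cacnb1 between the lines, and Cacna2d1 and Cacnb4 below the lower dashed line, and Cacna2d4 (0 in both) is not drawn.

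The make-up of each family followed from these values. Cacna2d1 made up 96.9% of the summed alpha2delta level in Wistar and 92.9% in SHR. The alpha2delta sum was 1.96 per 10000 in Wistar against 1.09 in SHR, 44.2% lower, and this rests on Cacna2d1 alone. Without it, the remaining alpha2delta genes summed to a level in SHR that was 1.26 times that in Wistar. That ratio comes from Cacna2d2 and Cacna2d3, whose low means allow no direction to be read, so it gives none either. The beta sum was 3.08 per 10000 in Wistar against 2.83 in SHR, 8.28% lower. Within the beta genes, Cacnb3 made up 60.8% of the sum in Wistar and 71.4% in SHR. Cacnb1 took 20.7% of the Wistar sum and 15.6% of the SHR sum, Cacnb4 17.6% and 12.1%, and Cacnb2 0.841% and 0.913%. Without Cacnb3, the beta sum in SHR was 0.670 times that in Wistar. With the median gene set to no change, the full beta sum was 1.06 times that in Wistar, so the direction of the beta sum depends on the scaling.

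**Figure D3:**
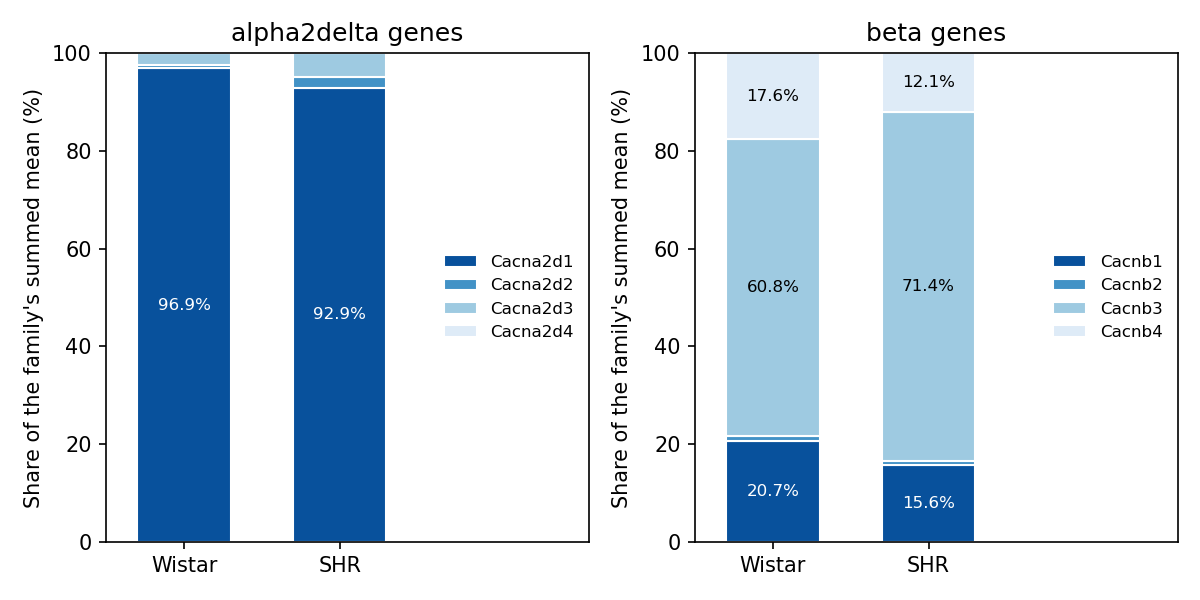
Share (%) of each gene in the summed mean of the alpha2delta genes (left) and of the beta genes (right) in the Wistar and SHR libraries, with shares above 5% printed. Cacna2d1 took 96.9% and 92.9% of the alpha2delta sum, and the share of Cacnb3 in the beta sum was 60.8% in Wistar and 71.4% in SHR.

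Auxiliary subunits act together with the pore-forming alpha1 subunit, and a ratio within a library does not depend on how the libraries were scaled. The alpha1 genes of the high-voltage-activated channels (Cacna1a to Cacna1f and Cacna1s) summed to 3.92 per 10000 in Wistar against 1.88 in SHR, 52.0% lower. Cacna1b, which encodes Cav2.2, was at 2.67 in Wistar and 1.28 in SHR and made up 68.2% and 68.0% of these sums. Of the T-type genes, Cacna1g and Cacna1h were below 0.001 per 10000 in Wistar against 0 in SHR, and Cacna1i was not analysed here.

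The alpha2delta sum kept close to the alpha1 sum, and the beta sum did not. The SHR to Wistar ratio was 0.480 for the alpha1 sum, 0.558 for the alpha2delta sum and 0.917 for the beta sum. For the median gene past the minimum it was 0.863. The beta sum was thus near the median gene, and the alpha1 and alpha2delta sums were below it. This contrast rests largely on Cacna2d1 and Cacnb3, since without Cacnb3 the ratio of the beta sum was 0.670. Gene length, described below, differs as well. Cacna2d1 and the alpha1 genes past the minimum are among the longest genes, where the median gene was 31.7% lower. Cacnb3 is among shorter genes, where the median gene was 5.80% lower. The part of gene length in these ratios was not tested. There were 0.50 alpha2delta counts for each alpha1 count in Wistar and 0.581 in SHR, a ratio 1.16 times as high in SHR. Beta counts were fewer than alpha1 counts in Wistar, at 0.788 for each alpha1 count, and more numerous in SHR, at 1.51, a ratio 1.91 times as high. These are ratios of transcript counts between different genes. Protein of these genes was not measured here, so the ratios do not give the subunit make-up of channels. Beta counts exceeded alpha2delta counts 1.57 times in Wistar and 2.59 times in SHR. Among single genes, the ratio to Cacna1b went from 0.710 in Wistar to 0.794 in SHR for Cacna2d1, from 0.702 to 1.58 for Cacnb3, from 0.239 to 0.346 for Cacnb1 and from 0.203 to 0.267 for Cacnb4. Relative to Cacna1b, all 4 genes were thus higher in SHR, Cacnb3 by the widest margin. The ratio of SHR to Wistar was lower than that of Cacna1b in only 9.53% of the 7621 genes past the minimum. Most genes would thus be higher relative to Cacna1b, so this is not particular to the subunit genes. Leaving Cacna1b out of the alpha1 sum changed the 2 strain ratios of the families only to 1.15 and 1.90.

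**Figure D4:**
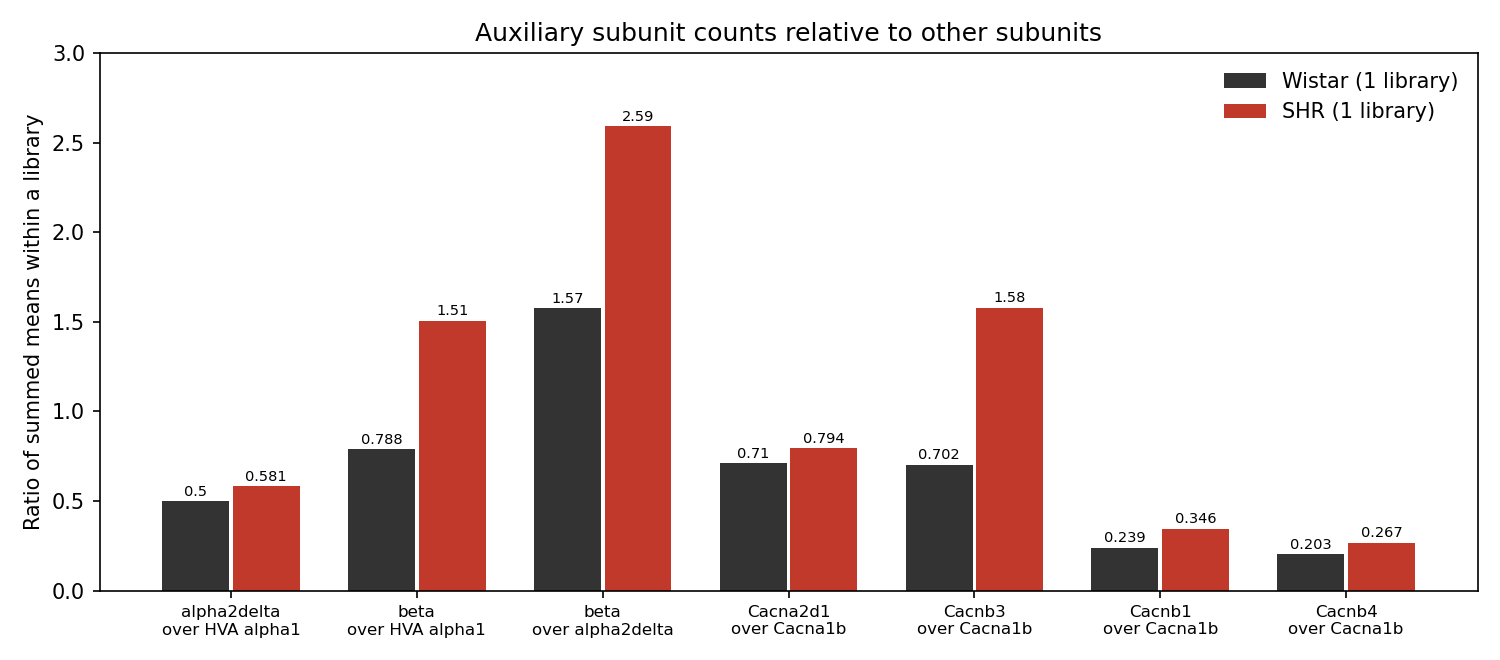
Ratio of mean counts within the Wistar library (black bars) and the SHR library (red bars) for family sums and for single genes over Cacna1b, where HVA alpha1 stands for the high-voltage-activated alpha1 genes. The alpha2delta to alpha1 ratio was 0.50 in Wistar and 0.581 in SHR, the beta to alpha1 ratio 0.788 and 1.51, and the ratio of Cacnb3 to Cacna1b 0.702 and 1.58.

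Gene length moved with the difference between the strains, and the auxiliary subunit genes differ widely in length. The 7291 genes past the minimum with a genomic span in the GRCr8 assembly were split into 10 groups of equal size by span. Cacna2d1 and Cacnb4 belonged to the group of the longest genes, with Cacna1a, Cacna1b and Cacna1d. In that group 85.6% of genes were lower in SHR, 47.1% were lower by the size rule, and the median gene was 31.7% lower. Cacna2d1, 46.5% lower, and Cacnb4, 37.1% lower, were both below that median. Cacnb1 belonged to the fifth group, where 66.8% of genes were lower and the median gene was 13.9% lower, and was itself 30.8% lower. Cacnb3 has a much shorter span, in the third group, where 56.4% of genes were lower and the median gene was 5.80% lower, against 7.66% higher for Cacnb3. Cacna2d2, Cacna2d3 and Cacnb2 also have spans in the range of the longest group and were not lower beyond what 1 cell can give. The part of gene length in these differences was not tested.

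**Figure D5:**
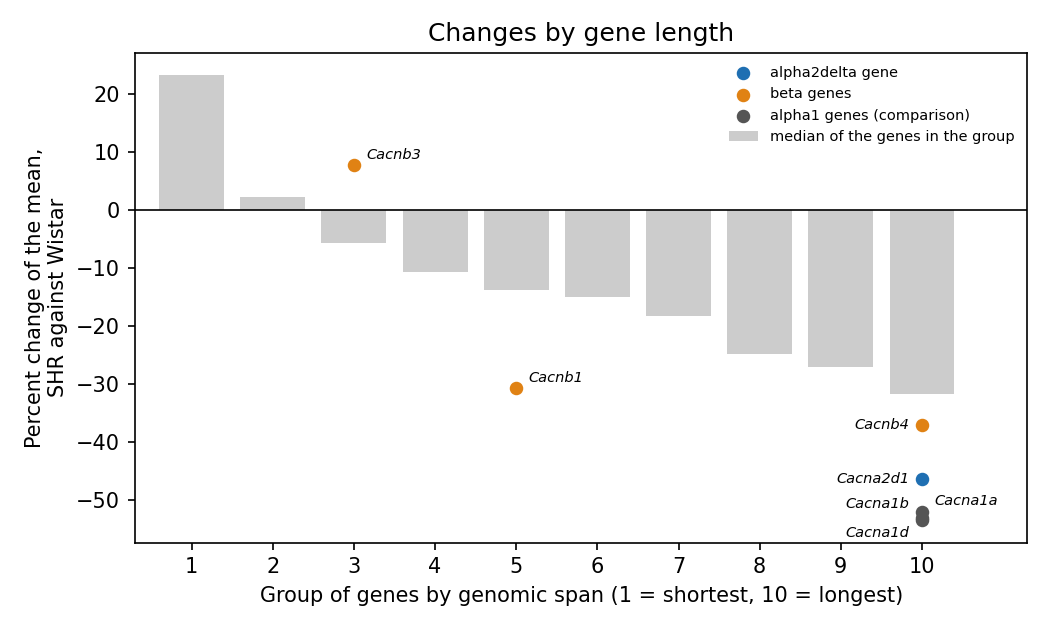
Percent change of the mean in SHR against Wistar for the auxiliary subunit genes and alpha1 genes past the minimum (points), set on the median change of all genes in 10 groups of genomic span from shortest to longest (grey bars). The group medians run from 23.2% higher to 31.7% lower, and Cacnb3 lies above the bar of its group while Cacnb1, Cacnb4 and Cacna2d1 lie below theirs.

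Genes whose products bind or regulate these subunits were described from 6 lists. Of 47 genes in the lists, all had a line and 22 passed the minimum. Of these 22, 15 were lower and 7 higher in SHR, and by the size rule 9 were lower and 2 higher, with a median log2 difference of -0.16. Over all genes past the minimum, 65.6% were lower, and by the size rule 26.5% were lower and 5.22% higher.

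The RGK proteins bind beta subunits and inhibit high-voltage-activated calcium currents. Gem was the most abundant of the 4 RGK genes, at 0.484 per 10000 in Wistar against 0.791 in SHR, 63.4% higher, a difference past the size rule. Rrad was listed at 0.0546 per 10000 in Wistar against 0.0156 in SHR, and Rem1 and Rem2 were below 0.04 in both. Of the 8 gamma subunit genes, related to the fourth subunit of muscle calcium channels, Cacng4 led with 0.130 per 10000 in Wistar against 0.217 in SHR, 67.2% higher. It was followed by Cacng7, at 0.0744 and 0.0556. None of the 3 Stac adaptor genes passed the minimum. Stac was listed at 0.0283 per 10000 in Wistar against 0.0217 in SHR, and Stac3 at 0.0190 in Wistar and 0 in SHR.

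The release site list holds scaffold and adhesion genes of the presynaptic active zone, where calcium channels are placed beside vesicles. All 8 of its 14 genes that passed the minimum were lower in SHR, as were 65.6% of all genes past it, and 4 of them were lower by the size rule. Pclo, encoding the scaffold protein piccolo, was at 3.11 per 10000 in Wistar against 1.46 in SHR, and Nrxn2, a neurexin gene, was at 1.33 and 1.27. Among the trafficking and matrix partners of alpha2delta, Prnp, which encodes the prion protein, was the most abundant, at 8.33 per 10000 in Wistar against 9.94 in SHR. Lrp1, a large endocytic receptor, was at 0.587 in Wistar and 0.211 in SHR, 64.1% lower. The thrombospondin genes Thbs1 to Thbs4, encoding secreted ligands of alpha2delta-1, were each below 0.05 per 10000 in both libraries. Of the other regulators, 6 of the 10 genes past the minimum were lower. Nedd4, a ubiquitin ligase gene, was at 9.82 per 10000 in Wistar against 8.32 in SHR.

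The genes with levels most like those of the leading subunit of each family were found by distance in log2(1 + mean), over the 2 libraries only. Nearest to Cacna2d1 was Abca2, at 1.85 per 10000 in Wistar against 1.01 in SHR, then Grik5, at 1.84 and 1.03, and Ptprf, at 1.85 and 1.06. Nearest to Cacnb3 was LOC100362453, at 1.86 and 2.02, then Sdhb, at 1.88 and 2.05, and Tnfrsf21, at 1.85 and 2.06. Likeness over 2 values is loose.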

How the data were processed

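Cells of dissociated stellate ganglia were captured with 10x Genomics chemistry (Single cell 3′ v3). The submitters' processing notes name Cell Ranger 3.0.2, Seurat 3 and the build Rnor_6.0. Filters on cells, doublet treatment, neuron number and depth are not given in the sources used here. For the sympathetic neurons of each library the authors deposited 1 natural log value per gene, ln(1 + mean count per 10000). These were converted back with expm1, and each library then summed to 10000. Lines whose gene name occurs more than once (4) were not compared. A further deposited table holds only the authors' own comparison (fold changes, p-values and 2 columns of cell shares that name no strain) and was not used.

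Differences are SHR minus Wistar of log2(1 + mean), with a pseudocount of 1. Background counts use genes averaging at least 0.1 per 10000, with a size rule of a 1.5-fold ratio, since 1 library per strain allows no test. Genomic spans, used only as ranks, are from the RefSeq table of GRCr8 and cover 95.7% of these genes. Calculations used Python 3.11.15, NumPy 2.4.6 and pandas 2.3.3. Their arithmetic was checked on known ratios put on real genes without noise. That check does not tell how the size rule behaves between single libraries. Named partners are the 2 of each list with the highest average, of which 1 is not reported here. The alternatives were other pseudocounts, scalings, minimums, size rules and summed genes. The genes and lists were chosen with earlier results of these data known. The repeated low values and the position of each gene among all ratios were added after the data were examined.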

Additional observations from a re-analysis of the deposited data

How the results depend on the processing

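No paired analysis was possible because there was 1 library for each strain, and leaving out a library leaves no comparison. A pseudocount changes the size of a difference but cannot change its sign. Among the 8 genes, the sign differed between scalings for Cacnb2 alone. Its log2 difference became 0.0010 with mitochondrial and ribosomal protein genes left out of the total and 0.052 with the median gene set to no change. That centring adds 0.052 to every log2 difference by construction, and for ratios of means the corresponding step divides by the median ratio, 0.863. With markers of other cell types taken out of the total, none of the 7 detected genes moved by 0.05 or more. These markers summed to only 11.9 per 10000 in Wistar and 4.01 in SHR, so leaving them out could hardly change any value. The step also takes no counts of other cells out of the 8 genes themselves. The part of other cell types in the differences was therefore not tested by it.

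The SHR to Wistar ratio of the alpha2delta sum, 0.558, became 0.646 after division by the median ratio and 1.26 without Cacna2d1. The value of 1.26 rests on Cacna2d2 and Cacna2d3 and gives no direction. The ratio of the beta sum, 0.917, became 1.06 after that division and 0.670 without Cacnb3. The ratios to alpha1 moved by less than 1.1 times with the T-type genes added and with Cacna1b left out. The T-type genes were too low to change the alpha1 sum, which stayed at 3.92 per 10000 in Wistar. Without Cacna1b the largest alpha1 gene was Cacna1a, whose SHR to Wistar ratio, 0.469, was close to the 0.478 of Cacna1b. Neither choice could therefore move the ratios far.

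The background counts, 2021 lower and 398 higher genes, became 861 and 58 with a ratio of 2, 6852 and 2039 over genes of any level, 195 and 172 over genes averaging at least 1 per 10000, and 1320 and 1005 after that division. With a log2 difference of 0.25 as the rule, 902 were lower and 498 higher. Depth is unknown, and the values of Cacna2d2, Cacna2d3 and Cacnb2 are too low to compare the strains.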
